A study of Mus musculus with 20 samples.

Results

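The 36 genes described here encode proteins of adipocytes, of lipolysis and of fatty acid and triglyceride synthesis, and they were taken by gene symbol from a table of 14793 genes measured in mouse knee joints. All 36 genes were found in the table. Of these, Abhd5 and Sik2 were placed in the list because of their difference between TLR3-MSC and control joints, and the other 34 because of their known function. The whole list was written with earlier results of these data known, so the counts of the 34 are not free of that knowledge. All values in the comparison of TLR3-MSC with control are therefore given as a description without a test, and Abhd5 and Sik2 were tested only between STING-MSC and MSC joints, which had no part in their choice.

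Bulk RNA sequencing was done on the whole knee joints of 20 male C57BL/6Nci mice, with 5 joints in each of 4 groups. The mice were 12 weeks old at surgery. Every joint, controls included, had undergone destabilization of the medial meniscus (DMM), an operation that leads to osteoarthritis. Control joints received the needle alone at weeks 3 and 5 after surgery, without cells. MSC joints received 250000 unactivated mesenchymal stromal cells grown from mouse fat at both weeks. TLR3-MSC joints received the same number of these cells that had first been exposed to polyinosinic-polycytidylic acid (10 µg/mL, 2 h), a double-stranded RNA analogue that activates the receptor TLR3. STING-MSC joints received cells exposed for as long to 10 µg/mL of 2′3′-cGAMP, the cyclic dinucleotide that activates the sensor STING. The cells came from the pooled abdominal and inguinal fat of donor mice, so the 3 cell groups shared 1 donor pool. They were injected in phosphate-buffered saline, and no group received saline alone. A comparison with control therefore cannot tell the cells from the injected fluid. The joint was removed as 1 block of cartilage, synovium, capsule and subchondral bone, and a transcript can therefore come from fat, muscle, marrow or the injected cells. In such bulk samples, fewer cells of a type and less RNA per cell cannot be told apart. The methods place the collection at week 8, while another passage of the text places it 1 day after an injection.

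White adipocytes store triglyceride in a droplet coated by perilipins and release it by lipolysis. Adipose triglyceride lipase (the product of Pnpla2) takes the first fatty acid off the triglyceride, hormone-sensitive lipase (Lipe) the next, and monoglyceride lipase (Mgll) the last. At rest, perilipin 1 holds the lipase co-activator ABHD5 at the droplet, and beta-adrenergic signalling through cyclic AMP sets it free. Building the store needs fatty acids, made by acetyl-CoA carboxylase and fatty acid synthase or taken up from blood, and a glycerol backbone to which the acyltransferases join them. The knee holds an adipose depot, the infrapatellar fat pad, and fat cells in the marrow, and several of the enzymes also work in muscle, where fatty acids are burned.

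The library sizes recovered from the deposited values were 27955496 to 52529972 reads. Of the 36 genes, 0 were at 0 in any joint, and the lowest value was 8.46 normalized counts, of Adrb3 in control replicate 2. The 10 adipocyte markers were all detected, with summed levels of 7895 to 25721 normalized counts in control, 9682 to 26954 in MSC, 17275 to 32043 in TLR3-MSC and 14497 to 26978 in STING-MSC joints. Of 8 markers of brown adipocytes, Ucp1 and Elovl3 were not in the table, and Cidea and Cpt1b were at 0 in at least 1 joint. Libraries stood apart in other markers. The summed level of 7 epidermis markers was 7833 in control replicate 1 and 23754 in TLR3-MSC replicate 4, against a median of 513 in the control and 498 in the TLR3-MSC joints. MSC replicate 5 had 296 genes at 0, where no other joint had more than 97.

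**Figure D1:**
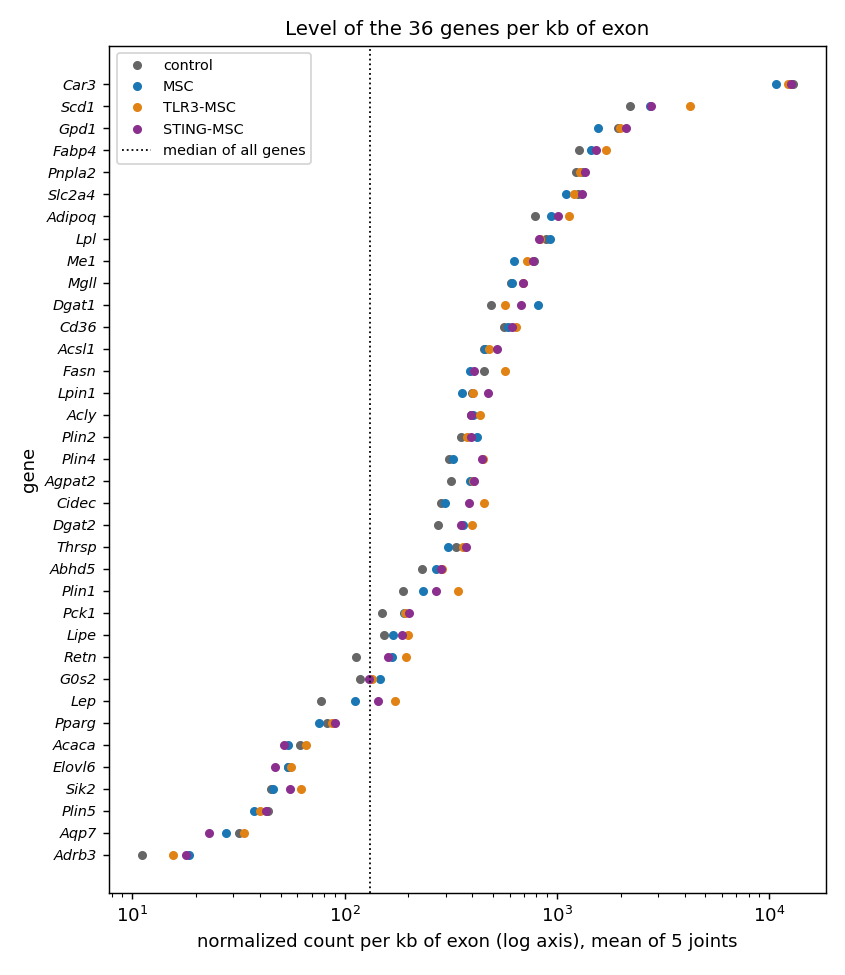
Mean normalized count per kb of exon (log axis) of each of the 36 genes, with 1 point for each group of 5 joints, and the median of all genes as a dotted line. Car3 stands highest, at 12165 over all joints, and Adrb3 lowest, at 15.8, and for each gene the 4 groups lie close together compared with the range over all 36 genes.

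Levels were compared between genes as normalized counts per kb of annotated exon, averaged over the 20 joints. The median of the 36 genes was 380 per kb and that of all genes was 132 per kb. Car3, the carbonic anhydrase of muscle and fat, was highest at 12165 per kb. Scd1, the stearoyl-CoA desaturase that makes monounsaturated fatty acids, followed at 2990, and Gpd1, the glycerol 3-phosphate dehydrogenase that supplies the glycerol backbone, at 1901. Fabp4, the fatty acid carrier of fat cells, stood at 1486 per kb and Pnpla2 at 1299. The lowest were Plin5, a droplet coat protein of oxidative tissues, at 40.9 per kb, Aqp7, the glycerol channel, at 29.0, and Adrb3, the beta-3 adrenergic receptor, at 15.8.

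The comparisons ask whether expression in the operated joint differed after injection of cells in saline, and after activation of these cells. A difference is given as the difference in mean log2(normalized count + 1), and a gene is called at an unadjusted p of at most 0.05 by limma, in which all joints share 1 estimate of the spread. For Abhd5 and Sik2 in STING-MSC against MSC, that spread includes the control and TLR3-MSC joints that chose them. The exact permutation test of the 2 groups alone does not use those joints. The false discovery rate (FDR) was computed over all 14793 genes. In MSC against control joints, 4 of the 36 genes were called higher (Abhd5, Plin2, Agpat2 and Dgat1) and 0 lower, beside 5.64% of all genes called higher and 2.91% called lower, and the value of Abhd5 among them is a description. Without Abhd5 and Sik2, 3 of 34 were higher, or 8.82%. In STING-MSC against control, 4 of 36 were called higher (Abhd5, Agpat2, Dgat1 and Sik2) and 0 lower, beside 6.54% and 5.69% of all genes. The values of Abhd5 and Sik2 among them are descriptions, and without the selected pair 2 of 34, or 5.88%, which is close to the background. In TLR3-MSC against MSC, 1 of 34 genes was called lower, Dgat1, and 0 of 34 higher, beside 1.99% and 1.89% of all genes. Sik2 was past the threshold there too, as higher, which is a description since its TLR3-MSC values chose it. In STING-MSC against MSC, Sik2 alone was called, as higher, beside 2.77% of all genes, and 0 of the 36 were called lower, beside 2.17%. In STING-MSC against TLR3-MSC, limma called 0 of the 36, beside 2.57% of all genes in either direction, DESeq2 called 0, and edgeR was past the threshold for Sik2, again a description, beside 4.09% of all genes. In the contrast that chose the pair, TLR3-MSC against control, 6 genes were past this p and higher (Abhd5, Plin1, Scd1, Agpat2, Dgat2 and Sik2), beside 2.68% of all genes, and 0 were lower, beside 0.906%, and nothing is read from these counts.

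At an FDR of 0.05, limma called 0 of the 36 genes in each of the 6 comparisons, and edgeR also called 0. Of the 34 genes chosen by function, DESeq2 called 1 in the tested comparisons, Dgat1 in MSC against control, where it called 0.827% of all genes with an adjusted p. Over all genes, limma called 1 gene at that FDR, or 0.00676%, in MSC against control, and 0 in the other comparisons. For single genes, 62 two-sided exact permutation tests of 5 joints against 5 were made, whose p are not adjusted for their number. Apart from Abhd5, Sik2, Adipoq and Plin1, the genes so tested were chosen by their small limma p in a tested comparison. They were Dgat1, Plin2, Agpat2, Fasn, Lpin1, Gpd1, Mgll, Acaca, Aqp7 and Acly. In the comparison that chose a gene, its exact p comes from the same joints and is not adjusted for that choice.

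The median difference of the 36 genes was 0.077 in MSC against control, where the median of all genes was -0.036. There, 24 of the 36 differences were above 0, beside 42.3% of all genes. It was 0.21 in STING-MSC against control (all genes 0.0078), with 28 above 0, beside 51.7% of all genes. In TLR3-MSC against MSC it was 0.18 (all genes 0.029), with 30 above 0, beside 57.4%. It was 0.15 in STING-MSC against MSC (all genes 0.022), with 27 above 0, beside 55.5%. In STING-MSC against TLR3-MSC it was -0.013 (all genes 0.021), with 17 above 0, beside 55.3%. In TLR3-MSC against control it was 0.19 (all genes -0.0068), with 30 above 0, beside 47.9%. The comparisons share joints, so these medians are not independent of each other. Many of the genes also vary together among joints, so they are not separate observations. The group with the lowest mean was control for 22 of the 36 genes, MSC for 9, STING-MSC for 5 and TLR3-MSC for 0. The group with the highest mean was TLR3-MSC for 18 and STING-MSC for 10 of them. These counts include Abhd5 and Sik2, which both had their highest mean in TLR3-MSC and their lowest in control joints, the groups that chose them. The same counts were not made over all genes, so nothing is read from them.

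**Figure D2:**
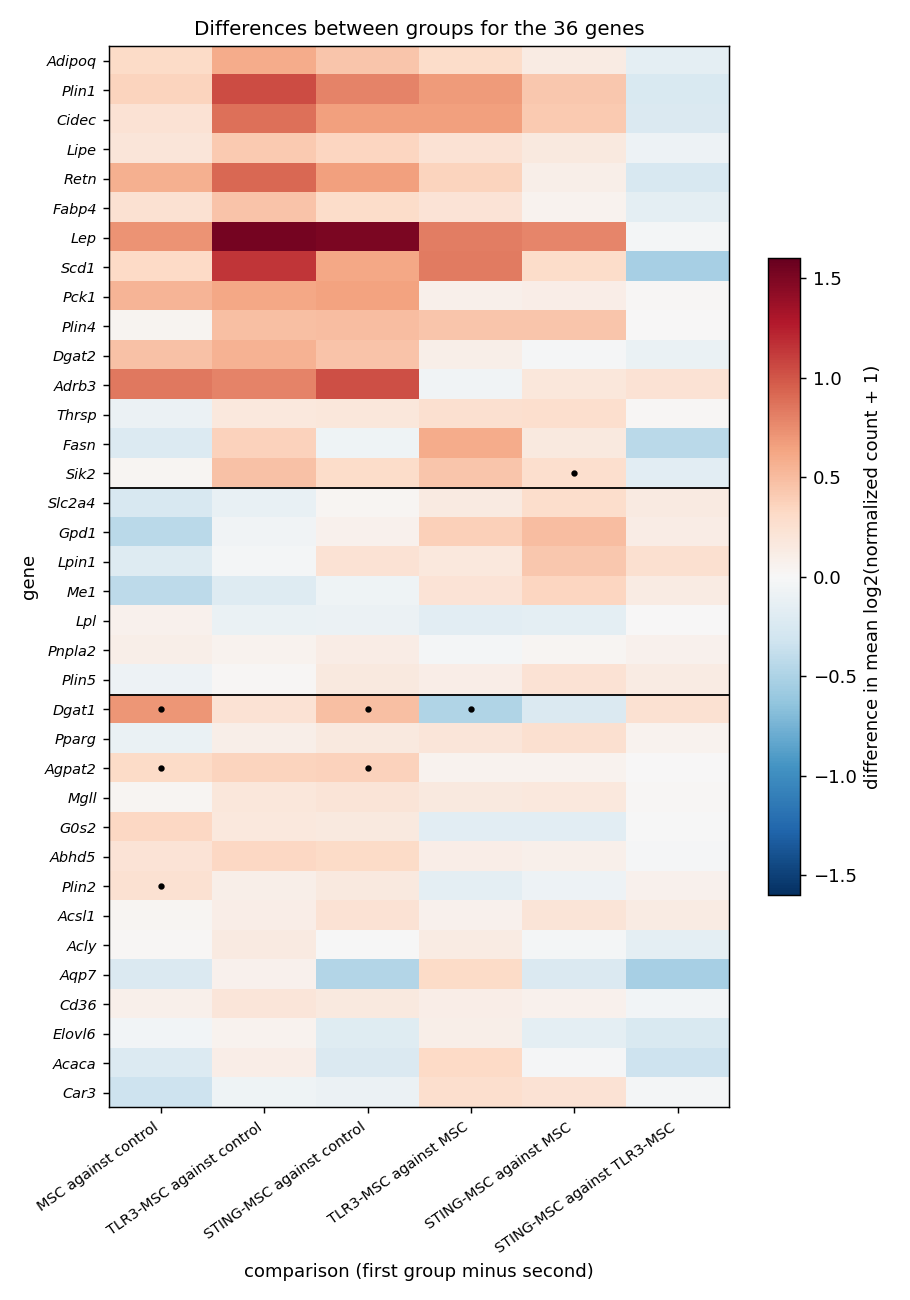
Differences in mean log2(normalized count + 1) of the 36 genes (rows) in the 6 comparisons (columns), red where the first group was higher and blue where it was lower, with a dot at a limma p of at most 0.05 where a test was made. Rows are ordered by the marker list a gene followed among joints (top block adipocyte, middle block muscle), and the dots mark Sik2, Dgat1, Agpat2 and Plin2 only.

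Of the 7 lipolysis genes, Abhd5 had the tightest values. ABHD5, also known as CGI-58, is the co-activator of adipose triglyceride lipase. In the deposited table Abhd5 lies at 9:122180673-122210589, on the plus strand of GRCm39, and the start of its canonical transcript in the GENCODE annotation lies 52 bases before that position. It is shown with its upstream sequence because it was 1 of the 2 genes chosen for their difference. The 250 bases before this canonical start, at chr9:122180371-122180620, are printed 5′ to 3′ with matches to the motifs named further on in capitals, here a GC box, a cyclic AMP response core and a nuclear receptor site.
Abhd5: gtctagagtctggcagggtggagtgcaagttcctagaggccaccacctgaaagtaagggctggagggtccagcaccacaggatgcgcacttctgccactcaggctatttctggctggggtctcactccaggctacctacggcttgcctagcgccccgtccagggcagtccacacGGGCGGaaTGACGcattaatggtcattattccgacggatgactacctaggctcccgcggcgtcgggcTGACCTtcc

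Abhd5 was measured in the control joints, from replicate 1 to 5, at 1791, 1665, 1581, 1617 and 1602 normalized counts. In MSC joints it was 2025, 1831, 1853, 1901 and 2018, in TLR3-MSC joints 2151, 1882, 2065, 2189.5 and 2060.4, and in STING-MSC joints 2255, 1863, 2033, 2012 and 2048. The highest control joint thus lay below the lowest joint of each cell group, and the 3 cell groups overlapped each other. The means were 1651 ± 84.2, 1926 ± 91.4, 2069.6 ± 118 and 2042 ± 140.2 (SD, n = 5). Against control, the differences were 0.22 (SE 0.062) for MSC, 0.33 (SE 0.062) for TLR3-MSC and 0.31 (SE 0.062) for STING-MSC, all with the control joints that chose the gene and given without a test. The share of all genes whose MSC joints all lay above the control joints was 0.737%, for TLR3-MSC it was 0.575%, and for STING-MSC it was 0.933%. In STING-MSC against MSC, whose joints had no part in that choice, the difference was 0.083 and the two-sided exact permutation p 0.151. The SE of 0.062 and the 95% interval of -0.046 to 0.21 rest on the spread of all joints, the choosing ones included.

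The within-group SD of Abhd5 on the log2 scale was 0.081, and only 2.46% of all genes had a lower one. This SD includes the control and TLR3-MSC joints, and a choice by their difference can favour genes with little spread there. As folds, its differences from control were 1.17, 1.25 and 1.24 in MSC, TLR3-MSC and STING-MSC joints. Its r with 5 endothelial markers was -0.62 over the 20 joints with group means subtracted (rho -0.63, -0.66 without the 2 farthest joints). All 5 of these markers were called lower in STING-MSC against control, beside 5.69% of all genes. With 8 markers of neutrophils and marrow the r of Abhd5 was 0.46 (rho 0.46, 0.63 without the 2 farthest joints). Of these, 4 were called higher in MSC and 6 in STING-MSC against control, beside 5.64% and 6.54% of all genes. The part of both lists in the values of Abhd5 was not tested.

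The lipases themselves varied more. Pnpla2 had group means of 4843 in control, 5195 in MSC, 5082 in TLR3-MSC and 5330.3 in STING-MSC joints, and Lipe of 909.6, 1013, 1189.8 and 1110.3. For both, the groups overlapped in all comparisons, and the differences had p above 0.05. G0s2, the inhibitor of adipose triglyceride lipase, had means of 537, 669, 613 and 595, and its largest difference was 0.33 (SE 0.17) in MSC against control (FDR = 0.617 by limma). G0s2 lies within Lamb3 on the opposite strand over 1057 bases, and without knowledge of the counting strand their reads cannot be told apart.

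Mgll was measured in the MSC joints at 3974, 3736, 3999, 3784 and 3497 and in the STING-MSC joints at 4121, 4219.9, 3897, 4258 and 4884. The 2 groups overlapped only slightly, since the lowest STING-MSC joint, at 3897, lay below the highest MSC joint, at 3999. The difference was 0.17 (SE 0.11). The exact permutation test of these 2 groups alone gave p = 0.0238, while limma, with the spread of all groups, gave p = 0.144. Mgll spread more widely in control joints, 4373, 3511, 3304, 3142 and 4401, and in TLR3-MSC joints, 4837, 3377, 4281, 4949.8 and 3872. With 7 erythroid markers its r was 0.69 over the 20 joints with group means subtracted (rho 0.69, 0.74 without the 2 farthest joints). All 7 of these had a higher mean in STING-MSC than in MSC joints, by a median of 0.18, and 0 were called by limma. Their summed level ran from 908554 to 1813530 in MSC and from 1246860 to 1890160 in STING-MSC joints, with none at 0, and their part in the difference of Mgll was not tested.

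Adrb3 and Aqp7 had the lowest levels of this set. Adrb3 ran from 8.46 to 114 in control, from 25.9 to 168 in MSC, from 42.9 to 131 in TLR3-MSC and from 57.4 to 174 in STING-MSC joints. Its difference of 1.03 (SE 0.65) in STING-MSC against control is among the larger of the list in size, but its SE is large too, and the FDR was 0.532 by limma. Aqp7 was 213, 158, 119, 117 and 196 in control, 138, 195, 66.7, 155 and 146 in MSC, 111, 139.9, 199.7, 264 and 141 in TLR3-MSC and 95.7, 183, 95.9, 109 and 99.8 in STING-MSC joints. In 4 of the 5 STING-MSC joints it lay below every TLR3-MSC joint. The difference of -0.53 (SE 0.29) had an exact permutation p of 0.103. It was -0.70 without STING-MSC replicate 2 and -0.67 without TLR3-MSC replicate 1, and past the threshold of limma in both cases. Of all genes, 3.47% and 5.12% were called in these 2 fits.

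**Figure D3:**
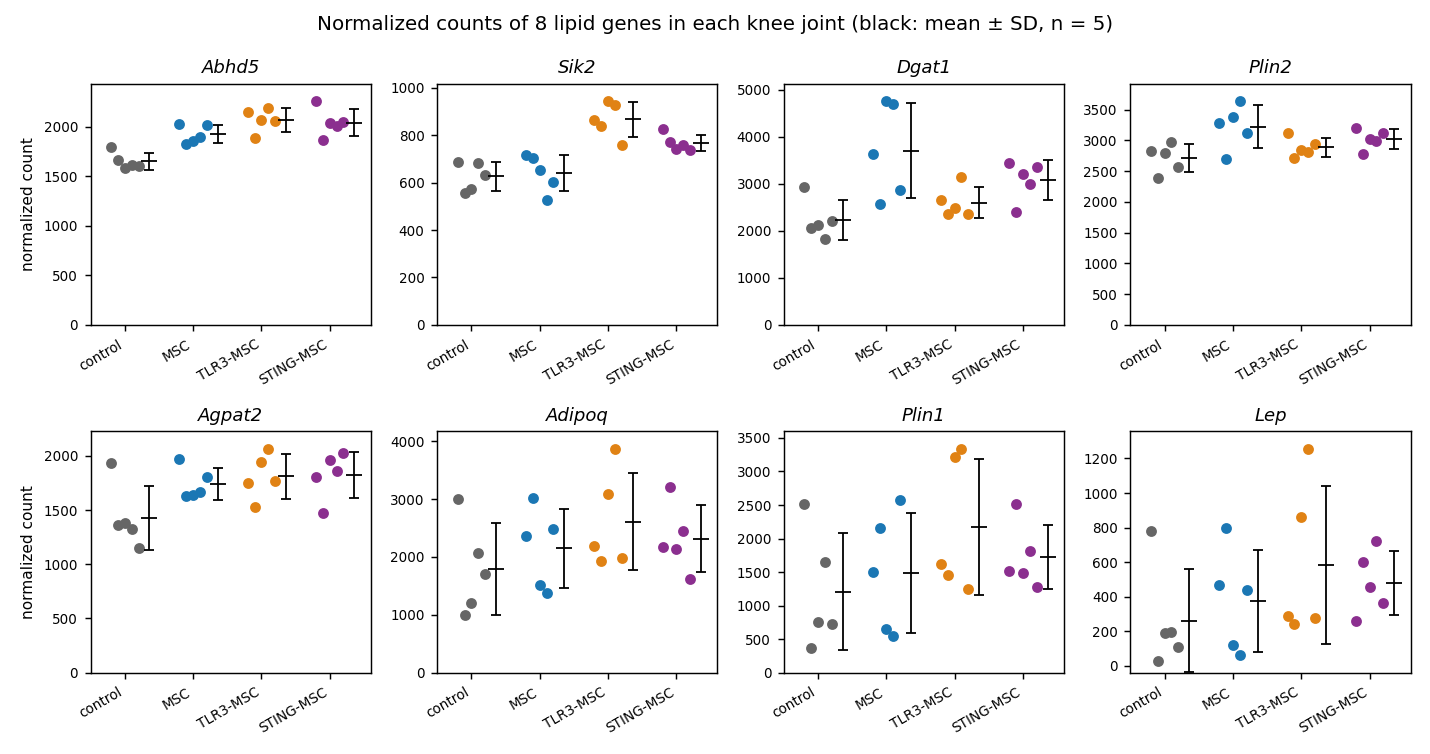
Normalized counts of 8 of the genes in each joint (colored points, 5 per group in order of replicate number), with the mean and SD of each group in black. Abhd5 in control joints sits at 1581 to 1791, below every joint of the cell groups, Sik2 in TLR3-MSC and STING-MSC joints sits above every MSC joint, and Adipoq, Plin1 and Lep spread so widely in every group that the groups overlap.

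Of the 5 droplet coat genes, Plin2 alone was called in a tested comparison. Plin2 encodes the perilipin of small droplets in most cell types, macrophages included. It was 2834, 2392, 2801, 2967 and 2569 in control joints and 3286, 2689.8, 3385, 3632 and 3121 in MSC joints. It was 3127, 2709.7, 2845, 2811 and 2945 in TLR3-MSC joints and 3199, 2779, 3021, 2995 and 3127 in STING-MSC joints. MSC joints were highest on average, but MSC replicate 2, at 2689.8, lay within the control range. The difference from control was 0.25 (SE 0.078) in MSC joints (p = 0.00539, FDR = 0.324 by limma), with an exact permutation p of 0.0397. In STING-MSC joints it was 0.16 (SE 0.078), with p = 0.0556 by limma and an exact permutation p of 0.0476. Between TLR3-MSC and MSC joints it was -0.15 (SE 0.078), with an exact permutation p of 0.111. Neither was past the threshold of limma, but both were by DESeq2, beside 15.2% and 4.7% of all genes. The first was also called without control replicate 4 or STING-MSC replicate 2 (0.19 in both cases), beside 5.87% and 14.7% of all genes. The last was called without MSC replicate 2 (-0.22) or TLR3-MSC replicate 1 (-0.18), beside 9.98% and 4.58% of all genes. With the neutrophil and marrow markers, Plin2 had an r of 0.41 (rho 0.37, 0.64 without the 2 farthest joints). Of these 8 markers, 4 were called higher in MSC and 6 in STING-MSC against control, beside 5.64% and 6.54% of all genes. The r of Plin2 was 0.51 with the erythroid markers (rho 0.52, 0.36 without the 2 farthest joints), of which 0 were called by limma. Their part in its differences was not tested.

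Plin1, the perilipin that guards the large droplet of fat cells, was spread far more widely. It was 2515, 368, 751, 1649 and 731 in control joints and 1497, 2152, 644, 551 and 2575 in MSC joints. It was 1614, 1449, 3209, 3332 and 1239.9 in TLR3-MSC joints and 1522, 2514, 1486, 1809 and 1281 in STING-MSC joints. The lowest values were those of control replicate 2 and MSC replicates 4 and 3, the highest those of TLR3-MSC replicates 4 and 3, and the groups overlapped throughout. The mean was 1203 ± 872 in control and 2169 ± 1015 in TLR3-MSC joints (SD, n = 5). The difference was 0.36 (SE 0.49) for MSC against control, 0.79 (SE 0.49) for STING-MSC against control and 0.68 (SE 0.49) for TLR3-MSC against MSC, with exact permutation p of 0.603, 0.159 and 0.262. The difference for TLR3-MSC against control was 1.04 (SE 0.49), as a description.

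The other coat genes resembled Plin1 in spread. Cidec, which encodes the protein that fuses droplets, had group means of 883, 914, 1406 and 1194 in control, MSC, TLR3-MSC and STING-MSC joints, and Plin4 of 2485, 2593, 3568 and 3559. Plin5 had means of 134, 115, 122 and 130.4. None of the 3 was called in a tested comparison, and the interval of Cidec for STING-MSC against control, -0.34 to 1.64, covers both a lower and a clearly higher level.

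Among the 3 adipokine genes, Adipoq encodes adiponectin, the hormone made by fat cells in largest amount. Its upstream sequence is shown as that of a gene restricted to fat cells, with 3 CCAAT boxes, on both strands, in capitals close to the start. The 250 bases are chr16:22965036-22965285 on the plus strand of GRCm39.
Adipoq: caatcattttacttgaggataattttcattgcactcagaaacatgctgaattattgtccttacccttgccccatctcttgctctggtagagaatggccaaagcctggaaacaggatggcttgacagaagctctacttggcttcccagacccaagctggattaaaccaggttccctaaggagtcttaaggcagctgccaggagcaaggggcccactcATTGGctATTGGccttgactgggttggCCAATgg

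Adipoq was 3000.0, 987, 1198, 2069.5 and 1698 in control joints and 2352, 3014, 1518, 1378 and 2477 in MSC joints. It was 2189.7, 1925, 3093, 3860.2 and 1981 in TLR3-MSC joints and 2167, 3214, 2134, 2439 and 1620.4 in STING-MSC joints. The 4 ranges overlapped, and control replicate 1 was higher than 4 of the 5 joints of the MSC and of the STING-MSC group. The means were 1790.3 ± 798, 2148 ± 687, 2609.8 ± 842 and 2315 ± 583 (SD, n = 5). The exact permutation p was 0.389 for MSC against control (difference 0.31 (SE 0.29)), 0.198 for STING-MSC against control (0.45 (SE 0.29)) and 0.341 for TLR3-MSC against MSC (0.29 (SE 0.29)).

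Lep, the leptin gene, varied most of the 36, with a within-group SD of 1.29 on the log2 scale. It ran from 30.2 to 778 in control, from 61.8 to 796 in MSC, from 239 to 1256 in TLR3-MSC and from 259.6 to 722 in STING-MSC joints. Its difference in STING-MSC against control, 1.504 (SE 0.76), was the largest of the 36 in that comparison and was not called (FDR = 0.431 by limma). Retn, which encodes resistin, had group means of 307, 451, 525 and 434 with ranges that overlapped.

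The 4 genes of fatty acid uptake and handling were among the more abundant. Lpl encodes lipoprotein lipase, which frees fatty acids at the vessel wall, Cd36 a fatty acid receptor, and Acsl1 the enzyme that couples fatty acids to coenzyme A. Group means in control, MSC, TLR3-MSC and STING-MSC joints were 10908, 11350.5, 10141 and 10023 for Lpl. They were 7079, 7398, 8077 and 7762 for Cd36, and 6274, 7186, 8446 and 7544 for Fabp4. For Acsl1 they were 7377, 7447, 7830.1 and 8503. None was called in the 5 tested comparisons, and the largest difference among those was 0.29 (SE 0.24) for Fabp4 in STING-MSC against control.

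Fatty acid synthesis was represented by 7 genes. All 7 had a higher mean in TLR3-MSC than in MSC joints, by a median of 0.26, none of them called. Acly makes the acetyl-CoA, Acaca encodes acetyl-CoA carboxylase, Fasn fatty acid synthase, Elovl6 an elongase, Me1 the malic enzyme that supplies NADPH, and Thrsp a lipogenic protein of fat and liver. The upstream sequence of Acaca is shown because it held the sterol element TCACNCCAC, in capitals with an E-box. The window is chr11:84063698-84063947 on the plus strand of GRCm39, and the sterol element stands at the end of a CA-rich run. In the deposited table Acaca lies at 11:84020498-84292477. The canonical start used here, and the window before it, thus lie inside the gene and not before its first base.
Acaca: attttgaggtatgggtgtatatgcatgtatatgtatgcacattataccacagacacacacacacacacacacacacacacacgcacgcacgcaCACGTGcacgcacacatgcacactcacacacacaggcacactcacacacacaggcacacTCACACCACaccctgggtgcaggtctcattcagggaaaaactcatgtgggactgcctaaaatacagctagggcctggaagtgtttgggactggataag

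Fasn was 7873, 2937, 4217, 7357 and 4065 in control joints and 3919, 5694, 3159, 2566 and 7472 in MSC joints. It was 6059, 6044, 11203, 5466 and 4634 in TLR3-MSC joints and 5345, 5183, 5039.8, 4751 and 3492 in STING-MSC joints. TLR3-MSC replicate 3 was the highest of all 20 joints, and MSC replicate 4 the lowest. The difference between TLR3-MSC and MSC joints was 0.59 (SE 0.30), with an exact permutation p of 0.143. Without TLR3-MSC replicate 3 it was 0.38. It was past the threshold of limma without MSC replicate 5 (0.79), MSC replicate 2 (0.70) or TLR3-MSC replicate 5 (0.70). In that order, 6.13%, 9.98% and 3.61% of all genes were called in these fits.

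Acaca was 1226, 858, 1203, 1437 and 962 in control joints and 873, 1137, 786, 706 and 1485 in MSC joints. It was 1191, 1105, 1598, 1123 and 1052 in TLR3-MSC joints and 899.5, 1035, 874, 999.5 and 959 in STING-MSC joints. The highest STING-MSC joint, at 1035, lay below the lowest TLR3-MSC joint, at 1052. The difference was -0.33 (SE 0.18), and its exact permutation p was 0.00794, the smallest that 5 joints against 5 can give. Limma, in which the wide MSC and control groups share the spread, gave an FDR of 0.89, while limma on these 2 groups alone called it, as it did 8.5% of all genes. Of all genes, 1.12% had all STING-MSC joints below all TLR3-MSC joints. Without TLR3-MSC replicate 3 the difference of Acaca was -0.23.

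Several marker lists moved with Acaca over the 20 joints, with group means subtracted. Its r was 0.68 with 5 adipocyte markers (rho 0.69, 0.64 without the 2 farthest joints) and 0.63 with 10 adipose stromal progenitor markers (rho 0.59, 0.52 without 2). It was -0.65 with the neutrophil and marrow markers (rho -0.57, -0.47 without 2) and -0.66 with the erythroid markers (rho -0.61, -0.51 without 2). In STING-MSC against TLR3-MSC, all 8 neutrophil and marrow and 6 of 7 erythroid markers had a higher mean, and 1 of 10 progenitor markers did, with medians of 0.27, 0.12 and -0.20 and 0 called by limma in these lists. The summed level of the neutrophil and marrow markers ran from 510524 to 788028 in TLR3-MSC and from 547331 to 850979 in STING-MSC joints, that of the erythroid markers from 1057470 to 1805830 and from 1246860 to 1890160, and that of the progenitor markers from 18756 to 34068 and from 14859 to 22077, with none at 0. Of 7 measured epidermis markers, with which Acaca had an r of 0.19 (rho 0.34), 3 were called lower, beside 1.78% of all genes. Their sums ran from 400 to 23754 in TLR3-MSC and from 420 to 460 in STING-MSC joints. Of 10 adipocyte markers, 2 had a higher mean in STING-MSC than in TLR3-MSC joints. Their median difference was -0.20, and 0 were called by limma. The summed level of the adipocyte markers ran from 17275 to 32043 in TLR3-MSC and from 14497 to 26978 in STING-MSC joints. The part of all these lists in the difference of Acaca was not tested.

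Acly was tight, with a within-group SD of 0.13 on the log2 scale. It was 6166, 5368, 6062, 6178 and 5049 in control joints, 6363, 6129.7, 6188, 4719 and 5859 in MSC joints, 6386, 6139.9, 6478, 6054 and 6751 in TLR3-MSC joints and 5195, 5167, 6228, 6083 and 6001 in STING-MSC joints. The difference between STING-MSC and TLR3-MSC joints was -0.15 (SE 0.087), with an exact permutation p of 0.0476 and an FDR of 0.89 by limma. Group means in the order control, MSC, TLR3-MSC and STING-MSC were 461, 461, 474 and 400.2 for Elovl6 and 4794, 3854, 4409.9 and 4728 for Me1. They were 738, 672, 792 and 817 for Thrsp. Scd1 had means of 15966, 19739, 30569 and 19899, with single joints from 5760.4 to 40246 among controls alone.

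Of the 6 genes of triglyceride synthesis, Dgat1 and Agpat2 were called. Dgat1 encodes a diacylglycerol acyltransferase, which performs the last step, and it is expressed in many tissues. Its upstream sequence is shown because Dgat1 had the largest called difference among the 34 genes chosen by function, and 2 cyclic AMP response cores are in capitals. The window is chr15:76396152-76396401 on the minus strand of GRCm39.
Dgat1: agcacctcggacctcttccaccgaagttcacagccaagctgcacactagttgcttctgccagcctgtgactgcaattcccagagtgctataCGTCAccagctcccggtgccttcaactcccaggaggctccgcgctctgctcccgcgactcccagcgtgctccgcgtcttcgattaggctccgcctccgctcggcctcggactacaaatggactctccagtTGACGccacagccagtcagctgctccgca

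Dgat1 was 2931, 2059, 2114, 1820.2 and 2202 in control joints and 3630.3, 2566, 4749, 4702 and 2868 in MSC joints. It was 2649, 2351, 2476, 3141 and 2361 in TLR3-MSC joints and 3449.8, 2399.8, 3199, 2994 and 3364 in STING-MSC joints. MSC replicates 1, 3 and 4 lay above every joint of the control and TLR3-MSC groups, while MSC replicates 2 and 5 lay within the range of the controls. The means were 2225 ± 419, 3703 ± 1011, 2596 ± 328 and 3081 ± 419 (SD, n = 5). MSC joints were higher than control by 0.71 (SE 0.16), a fold of 1.63 (p = 0.000398, FDR = 0.137 by limma, FDR = 0.00798 by DESeq2), with an exact permutation p of 0.0238. STING-MSC joints were higher than control by 0.48 (SE 0.16) (p = 0.0095, FDR = 0.329 by limma, exact permutation p = 0.0159). TLR3-MSC joints were lower than MSC joints, with a difference of -0.48 (SE 0.16) (p = 0.00949, FDR = 0.978 by limma, exact permutation p = 0.0635). STING-MSC against MSC gave -0.23 (SE 0.16), with an interval of -0.58 to 0.11.

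Markers of neutrophils and marrow moved with Dgat1. The summed level of 8 such markers ranged from 381579 to 682900 in control, from 543270 to 929818 in MSC, from 510524 to 788028 in TLR3-MSC and from 547331 to 850979 in STING-MSC joints, with none at 0. Of the 8, 4 were called higher in MSC against control and 6 in STING-MSC against control, beside 5.64% and 6.54% of all genes. S100a8 was higher by 0.65 (SE 0.20) and 0.62 (SE 0.20). Among joints, with group means subtracted, Dgat1 had a Pearson's r of 0.84 and a Spearman's rho of 0.83 with the mean log2 level of these markers over 20 joints, and r was 0.82 without the 2 joints farthest from the median. Of all genes, 13.5% had an r over 0.7 with these markers. Its r was also 0.76 with 7 erythroid markers (rho 0.79), -0.73 with the endothelial markers (rho -0.72) and -0.83 with 10 markers of adipose stromal progenitors (rho -0.83). The part of these lists in the difference of Dgat1 was not tested.

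Agpat2, the acyltransferase that makes phosphatidic acid, was 1931, 1365, 1379, 1329 and 1146 in control joints and 1976, 1627, 1644, 1669 and 1805 in MSC joints. It was 1751, 1526, 1947, 2062 and 1773 in TLR3-MSC joints and 1808, 1473, 1960.4, 1862 and 2026 in STING-MSC joints. Apart from control replicate 1, the controls lay below every joint of the 3 cell groups. Its difference from control was 0.30 (SE 0.12) in MSC joints (p = 0.02, FDR = 0.453 by limma, exact permutation p = 0.0397). In STING-MSC joints it was 0.37 (SE 0.12) (p = 0.00662, FDR = 0.31 by limma, exact permutation p = 0.0317). The call in MSC joints was lost without control replicate 5 (0.23) and without MSC replicate 1 (0.26). Its r with the neutrophil and marrow markers was 0.59 over the 20 joints, with a rho of 0.55, and 0.69 without the 2 farthest joints. It was -0.70 with the endothelial markers (rho -0.73). Their part in its difference was not tested. Agpat2 shares 64 bases with Egfl7, an endothelial gene on the opposite strand, which differed by 0.040 (SE 0.19) in MSC and by -0.43 (SE 0.19) in STING-MSC joints against control.

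Dgat2, the acyltransferase of the same last step that predominates in fat, differed from Dgat1 in its pattern. Its means were 1655 ± 711 in control, 2184 ± 424 in MSC, 2399 ± 796 in TLR3-MSC and 2136 ± 195 in STING-MSC joints (SD, n = 5). Control replicate 1, at 2868, stood above the other controls, which reached at most 1672. The difference from control was 0.47 (SE 0.23) in MSC joints (FDR = 0.595 by limma) and 0.45 (SE 0.23) in STING-MSC joints (FDR = 0.437 by limma), and neither was called. Pck1, which makes glycerol 3-phosphate from smaller precursors, had means of 557, 702, 713 and 744 and was not called.

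Gpd1 was 5954, 7188, 5223, 6262 and 6113 in control joints and 2704, 4196, 3418, 5868 and 8419 in MSC joints. It was 3905, 7714, 9867, 5080.2 and 4758 in TLR3-MSC joints and 7580.2, 10387, 5254, 5957 and 4368 in STING-MSC joints. The lowest of all joints was MSC replicate 1, and the highest were STING-MSC replicate 2 and TLR3-MSC replicate 3. Lpin1, which encodes the phosphatidic acid phosphatase lipin 1, was 5044, 5207, 3858, 4699 and 4761 in control joints and 2718, 3307, 3823, 5387 and 5990.1 in MSC joints. It was 3389, 5681, 7397, 4028 and 3535 in TLR3-MSC joints and 6345, 7881, 4250.4, 5024 and 4645 in STING-MSC joints, and the same joint was lowest and the same 2 joints highest. Between STING-MSC and MSC joints, the difference was 0.50 (SE 0.29) for Gpd1 (exact permutation p = 0.198) and 0.43 (SE 0.23) for Lpin1 (exact permutation p = 0.151). Limma called both without MSC replicate 5 (0.72 and 0.57), and Lpin1 also without MSC replicate 4 (0.53) or STING-MSC replicate 3 (0.52). In that order, 6.66%, 6.55% and 5.44% of all genes were called in these fits. Of 11 measured skeletal muscle markers, with which both genes correlated (r of 0.88 and 0.87, rho 0.85 and 0.83), 9 had a higher mean in STING-MSC than in MSC joints, by a median of 0.48 over the 11, and 0 were called by limma. Their summed level ran from 971567 to 3100820 in MSC and from 1581030 to 3985640 in STING-MSC joints, with none at 0, and their part in both differences was not tested.

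Sik2, a salt-inducible kinase that is abundant in fat cells and restrains the CREB coactivators, was the other gene chosen for its difference. In the deposited table it lies at 9:50804101-50920373 on the minus strand of GRCm39, on the same chromosome as Abhd5, and it overlaps Ppp2r1b on the opposite strand over 1429 bases. The 250 bases upstream of its canonical GENCODE start, itself 10 bases upstream of the table's position, at chr9:50920384-50920633, hold 8 GC boxes on both strands, in capitals, and 79.2% of the bases are G or C, against 60.4% for Abhd5 and 48.8% for Adipoq.
Sik2: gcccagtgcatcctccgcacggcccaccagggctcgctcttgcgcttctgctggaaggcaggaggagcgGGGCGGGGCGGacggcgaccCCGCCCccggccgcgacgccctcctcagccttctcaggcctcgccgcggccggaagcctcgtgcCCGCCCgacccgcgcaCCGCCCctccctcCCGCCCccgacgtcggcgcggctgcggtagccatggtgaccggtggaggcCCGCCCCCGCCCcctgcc

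Sik2 was 687, 557, 573, 685 and 631 in control joints and 715, 704, 655, 527 and 603 in MSC joints. It was 863, 840.2, 942, 928 and 761 in TLR3-MSC joints and 825, 773, 742, 758 and 739 in STING-MSC joints. All 5 STING-MSC joints lay above the highest MSC joint, at 715, by a narrow margin, and so did all 5 TLR3-MSC joints, as in 0.27% of all genes. The means were 627 ± 60.8, 641 ± 77.4, 867 ± 73.2 and 767 ± 34.8 (SD, n = 5). The tested difference, STING-MSC against MSC, was 0.27 (SE 0.091), a fold of 1.20, with an exact permutation p of 0.00794, the smallest possible, and p = 0.00853 by limma. This SE and the limma p rest on the spread of all joints, those that chose Sik2 included. Over all genes the FDR was 0.84 by limma, so Sik2 did not pass there. Of all genes, 0.507% had every STING-MSC joint above every MSC joint. As a description, TLR3-MSC joints were higher than control by 0.47 (SE 0.091) and than MSC by 0.44 (SE 0.091), STING-MSC joints higher than control by 0.30 (SE 0.091), and MSC against control gave 0.029 (SE 0.091). Ppp2r1b differed by 0.10 (SE 0.16) between STING-MSC and MSC joints. Among joints, with group means subtracted, Sik2 had an r of 0.68 with macrophage markers (rho 0.64, 0.50 without the 2 farthest joints) and of 0.68 with epidermis markers (rho 0.70, 0.68 without them). The summed level of the 8 macrophage markers ran from 30111 to 46702 in MSC and from 35423 to 47870 in STING-MSC joints, and that of the epidermis markers from 435 to 1519 and from 420 to 460. With 5 adipocyte markers, Sik2 had an r of 0.74 (rho 0.67, 0.66 without the 2 farthest joints). Of 10 adipocyte markers, 8 had a higher mean in STING-MSC than in MSC joints, by a median of 0.18 over the 10. Of the 8 macrophage markers 4 had a higher mean there, and of 7 epidermis markers 2. In these lists 0 were called by limma in that comparison. The part of these lists in the difference of Sik2 was not tested.

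Of the last 3 genes, Slc2a4 encodes the insulin-dependent glucose transporter GLUT4 and had means of 6584, 5750.4, 6295 and 6843 in control, MSC, TLR3-MSC and STING-MSC joints. Pparg, the nuclear receptor that drives fat cell differentiation, had means of 574, 527, 608 and 631. Car3 had 40010.3, 33313, 37998 and 39184. None was called in a tested comparison, and the 95% interval of Pparg against control was -0.46 to 0.26 for MSC and -0.20 to 0.51 for STING-MSC joints.

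The 36 genes did not vary among joints as 1 block. With group means subtracted, 15 of them had an r over 0.7 with 5 adipocyte markers outside the list (Cfd, Cebpa, Tmem120b, Acvr1c and Npr3), as did 1.43% of all genes. These were Adipoq, Plin1, Cidec, Lipe, Retn, Fabp4, Lep, Scd1, Pck1, Plin4, Dgat2, Adrb3, Thrsp, Fasn and Sik2. Another 7, namely Slc2a4, Gpd1, Lpin1, Me1, Lpl, Pnpla2 and Plin5, had an r over 0.7 with 11 skeletal muscle markers, as did 11.1% of all genes. The remaining 14 passed this cutoff with neither list, some of them narrowly. Car3 had an r of 0.696 with the muscle markers, and Acaca and Elovl6 had 0.676 and 0.642 with the adipocyte markers. The 14 included Plin2, Agpat2 and Dgat1, the 3 of 34 genes called in MSC against control, and Abhd5, whose value there is a description. The points share their libraries, depths and dissections, and the correlations are a description. Of the other lists, 0 of 8 macrophage, 7 erythroid, 7 chondrocyte and 7 osteoblast markers were called by limma in the 6 comparisons. Of 10 stromal progenitor markers, 1 was lower in MSC and 2 in STING-MSC against control, beside 2.91% and 5.69% of all genes. Of 6 measured sebaceous gland markers, Mgst1 was higher in both, beside 5.64% and 6.54% of all genes. Of 6 measured brown adipocyte markers, Kcnk3 was lower in STING-MSC against control.

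**Figure D4:**
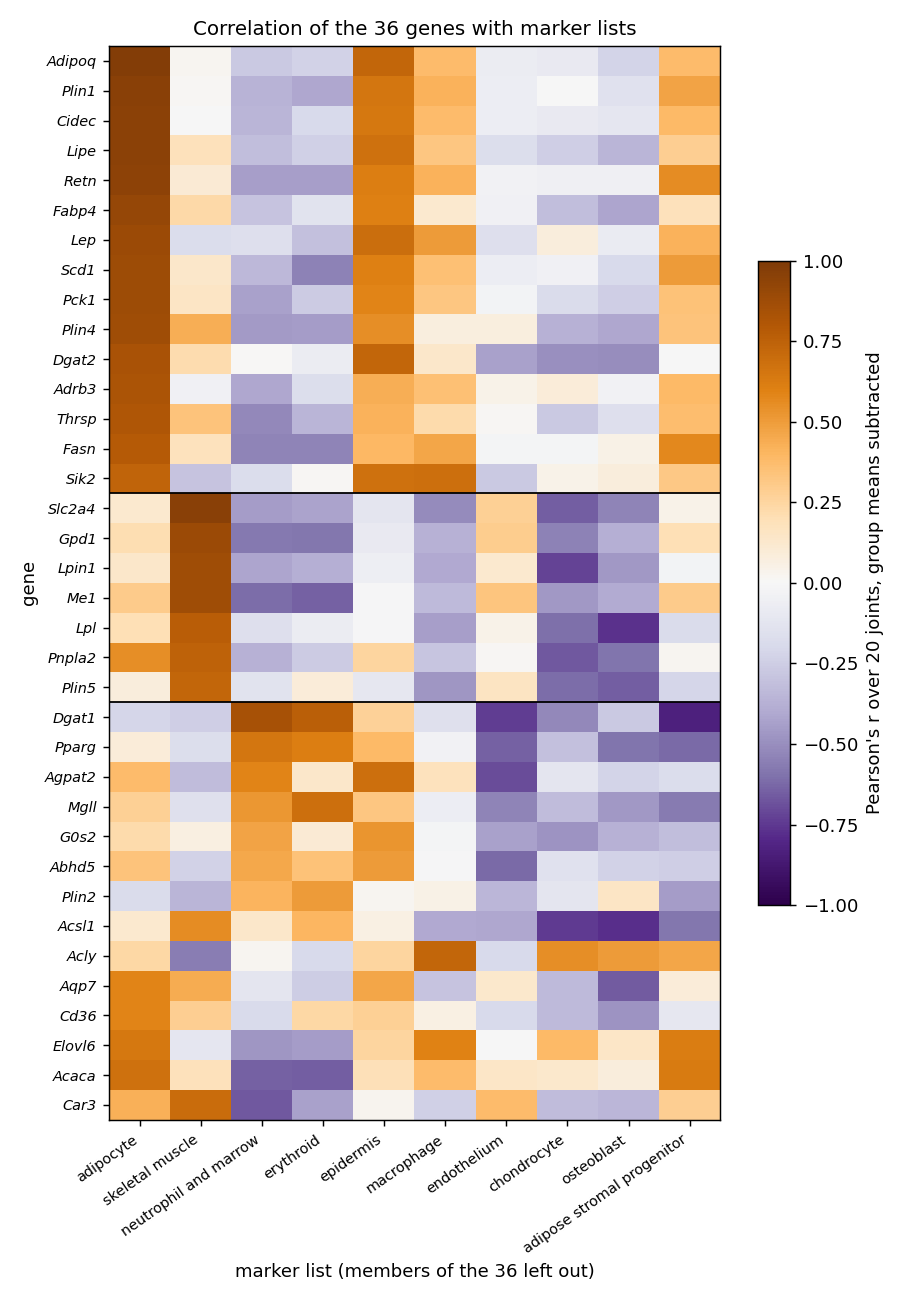
Pearson's r over 20 joints, with group means subtracted, between each of the 36 genes (rows) and the mean log2 level of 10 marker lists (columns), from -1 in purple to 1 in orange. The top 15 genes follow the adipocyte markers, the middle 7 the skeletal muscle markers, and Dgat1, with an r of 0.84, the neutrophil and marrow markers.

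For the adipocyte markers, r was 0.98 for Adipoq (rho 0.96, and 0.97 without the 2 farthest joints), 0.96 for Plin1 (rho 0.95, 0.94 without them) and 0.89 for Lep (rho 0.88, 0.84 without them). Sik2 had an r of 0.74 (rho 0.67) that was 0.66 without these 2 joints, control replicate 1 and MSC replicate 4. Abhd5 had an r of 0.34 (rho 0.33), and 0.22 without them. The coat proteins thus divided, since Plin1, Plin4 and Cidec followed the adipocyte markers, Plin5 the muscle markers, and Plin2 neither. The 2 acyltransferases of the last step divided as well, with an r of 0.83 for Dgat2 and -0.21 for Dgat1 with the adipocyte markers. Of the lipases, Lipe followed the adipocyte markers. Pnpla2 had an r of 0.75 with muscle (rho 0.71) and of 0.55 with the adipocyte markers (rho 0.53), but without the 2 joints farthest from the median of each list both were 0.63, so that its place among the genes that followed muscle rests on those joints.

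For the muscle markers, r was 0.96 for Slc2a4 (rho 0.94), 0.88 for Gpd1 (rho 0.85) and 0.87 for Lpin1 (rho 0.83), and 0.94, 0.82 and 0.81 without TLR3-MSC replicate 3 and MSC replicate 5. The summed level of the muscle markers was high in all joints, from 971567 in MSC replicate 1 to 3985640 in STING-MSC replicate 2. MSC replicate 1 was also the joint with the lowest Gpd1, Slc2a4 and Lpin1 of the MSC group. Between pairs of the 36 genes, r was 0.98 for Gpd1 and Me1, 0.96 for Gpd1 and Slc2a4, 0.93 for Plin1 and Cidec, 0.89 for Fasn and Acaca, 0.26 for Abhd5 and Sik2 and -0.14 for Plin1 and Plin2.

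**Figure D5:**
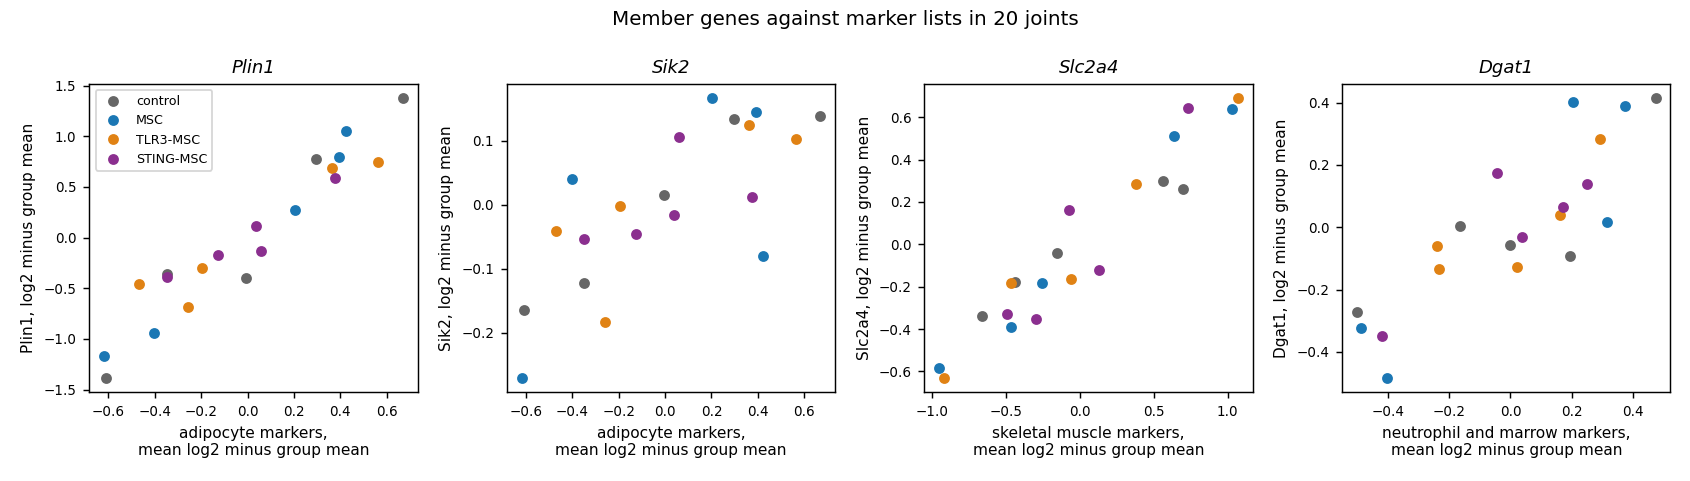
Log2 level of 4 of the genes against the mean log2 level of a marker list in the 20 joints, both after subtraction of the group mean, colored by group. Plin1 tracks the adipocyte markers closely (r of 0.96), Sik2 more loosely (r of 0.74), Slc2a4 with the skeletal muscle markers (r of 0.96) and Dgat1 with the neutrophil and marrow markers (r of 0.84).

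The same joints were the highest of their group for many of the genes. Control replicate 1 was the highest control for 20 of the 36 genes and for 13 of the 15 that followed the adipocyte markers, MSC replicate 5 the highest of its group for 21 and 11, and STING-MSC replicate 2 for 21 and 11. TLR3-MSC replicate 3 was highest for 17 and replicate 4 for 16 of the 36. Without control replicate 1, 11 of the 36 were called in STING-MSC against control, beside 15.7% of all genes, and 6 in MSC against control, beside 11.2%. Both counts include any call of Abhd5 and Sik2, which the control joints helped to choose, so they are descriptions. Without control replicate 1, Adipoq differed between STING-MSC and control joints by 0.66 and Plin1 by 1.14, and both were called. This joint also had raised epidermis markers, and the part of these in its values was not tested.

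Other genes of the same pathways, outside the 36, were counted from lists written with earlier results known. Of 20 measured genes of triglyceride synthesis and the droplet, 1 was called higher in MSC against control, Gpat3, a glycerol 3-phosphate acyltransferase, at 0.37 (SE 0.14), and 0 lower. In STING-MSC against control, Mogat2, a monoacylglycerol acyltransferase, was higher at 0.53 (SE 0.22), and Lpin3, a relative of Lpin1, lower at -1.10 (SE 0.48). Of 18 genes of fatty acid and sterol synthesis, 1 was higher and 3 lower in MSC against control, and 1 higher and 5 lower in STING-MSC against control. Scd2, the desaturase of many tissues outside liver, was lower in both, with -0.45 (SE 0.20) and -0.68 (SE 0.20). Of 18 genes of fatty acid oxidation, 0 were called by limma in the 6 comparisons. Of 19 genes of adrenergic and insulin signalling, 2 were higher in MSC against control and 4 in STING-MSC against control, and 0 lower. Hcar2, the receptor through which niacin and ketone bodies curb lipolysis, was higher in both, with 0.77 (SE 0.20) and 0.70 (SE 0.20), and so was Pde3b, the phosphodiesterase through which insulin curbs it, with 0.40 (SE 0.17) and 0.44 (SE 0.17). None of these passed an FDR of 0.05 by limma. Of all genes, 5.64% were called higher and 2.91% lower in MSC against control, and 6.54% and 5.69% in STING-MSC against control. In STING-MSC against MSC, 1 of the 19 signalling genes was higher and 1 of the 18 synthesis genes lower, beside 2.77% and 2.17% of all genes. In STING-MSC against TLR3-MSC, 1 of each of these 2 lists was lower, beside 1.78%.

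Among 14 genes of the SIK, AMPK and CREB coactivator pathway, Sik1, a close relative of Sik2, was called lower. It was lower in TLR3-MSC against MSC, at -0.71 (SE 0.18), and in STING-MSC against MSC, at -0.56 (SE 0.18), where Sik2 was higher by 0.27. Sik3 was higher in TLR3-MSC against MSC, at 0.16 (SE 0.066). Of 17 adipogenic transcription factors, 3 were called higher and 0 lower in MSC against control, beside 5.64% and 2.91% of all genes. In TLR3-MSC and in STING-MSC against MSC, 2 were lower and 0 higher, beside 1.99% and 2.17% of all genes lower. In STING-MSC against control, 1 was higher and 1 lower, beside 6.54% and 5.69%. In STING-MSC against TLR3-MSC, 1 was lower, beside 1.78%. Cebpb, an early factor of adipogenesis that is also induced by inflammation, was higher in MSC against control, at 0.62 (SE 0.13) (FDR = 0.104 by limma), and lower in TLR3-MSC, at -0.80 (SE 0.13), and STING-MSC joints, at -0.75 (SE 0.13), against MSC. Cebpd was higher in MSC against control, at 0.66 (SE 0.13) (FDR = 0.0647 by limma). Cebpa, the late factor of the mature fat cell, was 0.19 (SE 0.13) in MSC against control, and -0.045 (SE 0.13) in STING-MSC against MSC joints.

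Short motifs were counted on both strands in the 250 bases upstream of the canonical start of all 36 genes and of 14770 genes in all. The nuclear receptor site AGGTCA was in 7 of the 36 windows (19.4%, all genes 11.7%), namely those of Abhd5, Aqp7, Plin2, Plin5, Fabp4, Acly and Elovl6. The sterol element TCACNCCAC was in 2 (5.56%, all genes 1.12%), among them that of Acaca, whose window lies inside the gene. The C/EBP site TTGCNNAA was in 3 (8.33%, all genes 8.5%), those of Adrb3, Lep and Lpl, and the E-box CACGTG in 2 (5.56%, all genes 7.36%). The CCAAT box was in 10 (27.8%, all genes 35.5%), the GC box GGGCGG in 13 (36.1%, all genes 46.5%) and the cyclic AMP response core TGACG in 5 (13.9%, all genes 21.6%). Of the 15 genes that followed the adipocyte markers, Fabp4 alone held AGGTCA in this window. A match describes letters only, and elements that lie farther away were not searched.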

How the data were processed

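Bulk RNA from the knee joints of 20 mice was analysed, in 4 groups of 5 taken from the sample labels. The authors aligned filtered reads with STAR 2.7.3a to GRCm39, counted them with HT-seq on Ensembl 108 in Partek Flow 10.0 and used DESeq2. A low-count filter and the counting strand are not given in the sources used here, so overlapping genes are uncertain. The authors deposited 1 table of counts divided by a size factor per sample, a normalized signal, and whole reads were recovered from it. In every joint, 100% of nonzero values under 1000 normalized counts were whole within 0.05 reads. Over all nonzero values the lowest share was 98.9%, in control replicate 5. Differences were fitted with limma 3.58.1 (trend) in R 4.3.3 on log2(normalized count + 1) over all 20 joints and 14793 genes, with Benjamini-Hochberg adjustment. A minimum mean of 5 removed 0 genes. Replicates are separate mice. Two-sided exact permutation tests used the 252 splits of 5 joints against 5, with a smallest p of 0.00794. Correlations used log2 values with group means subtracted. Gene positions and overlaps came from the deposited table, whose stop was taken as 1 past the last base, and strands, lengths and start sites from a GENCODE annotation of GRCm39. Alternatives were edgeR 4.0.16 and DESeq2 1.42.0 on recovered reads, other pseudocounts and minima, quantile normalization, fits of 2 groups, a replicate block and leaving out each joint. The scripts were tested on simulated data. The members and lists were chosen with earlier results of these data known. Values in every joint are given for Abhd5, Sik2, Adipoq, Plin1 and the 3 other genes with the smallest p in each tested comparison. Of other lists, at most 2 genes with the smallest p are named per comparison, with Cebpa and Cebpb.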

Additional observations from a re-analysis of the deposited data

Results flagged for a closer look

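Within groups of 5 joints, 3 of the 56 sets of values tested (14 genes in 4 groups) had 1 joint whose distance from its nearest neighbour exceeded 0.71 of the whole range. Chance gives about 1 in 20. Fasn was 11203 normalized counts in TLR3-MSC replicate 3, with the other 4 joints of the group at 4634 to 6059. Acaca was 1598 in that same joint, with the others at 1052 to 1191. Aqp7 was 183 in STING-MSC replicate 2, with the others at 95.7 to 109.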

How the results depend on the processing

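The comparisons rested on 5 joints a group. All counts of the 36 genes in this section include any call of Abhd5 and Sik2. Outside STING-MSC against MSC such calls are descriptions, so these counts show dependence on the processing and not an excess over all genes. The number of the 36 genes called stayed within 1.5 times its main value under other pseudocounts and minima, quantile normalization, DESeq2 and the replicate block in each of the 6 comparisons. In STING-MSC against TLR3-MSC, where 0 were called, edgeR gave 1, Sik2, a description since its TLR3-MSC values chose it, beside 4.09% of all genes, and a fit of the 2 groups alone called 2 (Acaca and Elovl6), beside 8.5% of all genes. Leaving out 1 joint at a time, the count ran from 3 to 8 in MSC against control, from 3 to 13 in TLR3-MSC against control, from 4 to 11 in STING-MSC against control, from 2 to 6 in TLR3-MSC against MSC, from 1 to 3 in STING-MSC against MSC and from 0 to 1 in STING-MSC against TLR3-MSC. The share of all genes called moved too, in the same order from 5.76% to 16.7%, 2.03% to 5.48%, 5.87% to 15.7%, 2.45% to 9.98%, 3.91% to 6.66% and 0.973% to 5.12%. The highest counts came without control replicate 1 (13 and 11) and without MSC replicate 5 (8, 6 and 3, the last also without MSC replicate 4). The difference of Adipoq reversed in STING-MSC against MSC without MSC replicate 4, to -0.0090 (range -0.0090 to 0.27 over the joints left out), and in STING-MSC against TLR3-MSC without TLR3-MSC replicate 4, to 0.0025 (range -0.28 to 0.0025), and the cause was not tested. Sik2 in STING-MSC against MSC kept its call without any 1 joint, with p from 0.00443 to 0.0333 by limma, whose spread includes the joints that chose it. Same-numbered joints did not deviate together (mean correlations of -0.14 to 0.11 between groups, and 3 of 20 joints closest to their own number), so the numbers do not pair them. With the replicate block, 4 of the 36 were called in MSC against control, 4 in TLR3-MSC against control, 5 in STING-MSC against control, 3 in TLR3-MSC against MSC, 1 in STING-MSC against MSC and 0 in STING-MSC against TLR3-MSC.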
